A study of Mus musculus with 9 samples.

Results

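Solute carriers (SLC proteins) that were well expressed in mouse intestinal organoids are described here across 7 bulk RNA-seq libraries. A gene was a member if its symbol had the form of a solute carrier family name, such as *Slc5a1*, and if its level reached 5 FPKM or more in at least 2 of the 7 libraries. FPKM counts sequenced fragments relative to the length of the transcript and the depth of the library. Of 54838 gene identifiers, 350 had such a symbol, 111 of these reached the level, and 6 of the 111 (*Slc2a1*, *Slc2a5*, *Slc7a11*, *Slc11a2*, *Slc37a4* and *Slc40a1*) were set apart by the rule, which left 105 members. The symbol form did not take in 44 other Slc symbols with letters such as b or c after the family number, 14 of which reached the level. *Slc35b1* and *Slc35c1* are among these. The symbol is not proof of a carrier, and at least 2 members are not carriers. *Slc9a3r1* encodes NHERF1, a scaffold with PDZ domains, and *Slc7a6os* is a neighbour of *Slc7a6*.

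The organoids were grown in ENR medium from small intestinal crypts of C57BL/6 mice with Vil-CreERT2;*Mettl3 fl/fl*, in which 4-hydroxytamoxifen (4-OHT) activates a Cre recombinase under the Villin promoter, active throughout the intestinal epithelium, to excise part of *Mettl3*, the m6A methyltransferase gene. Cultures were given 500 nM 4-OHT, or its solvent EtOH, over 2 days, together with DMSO or the RIPK1 inhibitor necrostatin-1 (Nec-1) over 5 days. Their libraries are labelled 4-OHT DMSO (2), 4-OHT Nec-1 (1), EtOH DMSO (2) and EtOH Nec-1 (2). A legend of the study states 5 µM Nec-1 and its methods 10 µM, and all groups carry the Cre and the floxed alleles. Nothing in the labels says that libraries of a group came from separate cultures, so their spread may be technical. *Mettl3* itself was higher in 4-OHT DMSO than in EtOH DMSO (change 0.41 on the log2(FPKM + 1) scale, limma adjusted p = 0.023). EtOH organoids gave *Mettl3* levels of 2.70 and 2.71 FPKM with DMSO and of 2.41 and 2.47 with Nec-1, and those labelled 4-OHT gave 3.72 and 4.14 with DMSO and 3.36 with Nec-1. Excision therefore cannot be read from these values, and every direction below rests on the labels of the libraries.

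Solute carriers move sugars, amino acids, ions, metals, vitamins and metabolites across the plasma membrane and the membranes of organelles, by facilitated diffusion or coupled to ion gradients. In absorptive enterocytes SGLT1 (*Slc5a1*) takes up glucose and galactose with sodium at the brush border, and GLUT2 (*Slc2a2*) releases them at the basolateral side. Most members of the SLC25 family exchange metabolites, nucleotides and phosphate across the inner mitochondrial membrane.

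Promoter windows of 4 members that were lower in 4-OHT DMSO are printed because transcript levels of these sugar and imino acid carriers are given further on. These 4 members were chosen after their values had been seen. Each window runs from 250 bases before to 50 bases after the RefSeq start in GRCm38.p6 (mm10), is printed 5′ to 3′ on the gene's strand, and shows in capitals any match on either strand to CAAAGTCCA (HNF4), GCGTG (the AhR core) or TGATGNAAT (the amino acid response element). The windows are those of *Slc5a1* (ENSMUSG00000011034) at chr5:33103969-33104268 (+), *Slc2a2* (ENSMUSG00000027690) at chr3:28697653-28697952 (+), *Slc5a4b* (ENSMUSG00000020226) at chr10:76110969-76111268 (-) and *Slc6a20a* (ENSMUSG00000036814) at chr9:123678783-123679082 (-).
Slc5a1: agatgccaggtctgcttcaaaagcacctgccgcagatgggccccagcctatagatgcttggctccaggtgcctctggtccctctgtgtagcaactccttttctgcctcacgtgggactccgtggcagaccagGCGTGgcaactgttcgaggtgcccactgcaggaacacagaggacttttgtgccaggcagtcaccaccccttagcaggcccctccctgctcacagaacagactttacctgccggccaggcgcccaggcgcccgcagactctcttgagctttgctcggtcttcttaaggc
Slc2a2: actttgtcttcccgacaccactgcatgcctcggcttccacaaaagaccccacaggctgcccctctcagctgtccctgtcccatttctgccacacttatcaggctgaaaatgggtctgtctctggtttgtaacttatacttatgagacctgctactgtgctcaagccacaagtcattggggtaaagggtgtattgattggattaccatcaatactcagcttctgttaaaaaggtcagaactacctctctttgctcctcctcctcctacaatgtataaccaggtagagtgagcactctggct
Slc5a4b: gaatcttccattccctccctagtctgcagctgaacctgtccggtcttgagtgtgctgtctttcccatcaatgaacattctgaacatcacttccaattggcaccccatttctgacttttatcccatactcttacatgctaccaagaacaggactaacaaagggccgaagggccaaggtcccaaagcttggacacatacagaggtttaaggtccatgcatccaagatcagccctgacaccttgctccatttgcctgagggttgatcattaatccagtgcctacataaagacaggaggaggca
Slc6a20a: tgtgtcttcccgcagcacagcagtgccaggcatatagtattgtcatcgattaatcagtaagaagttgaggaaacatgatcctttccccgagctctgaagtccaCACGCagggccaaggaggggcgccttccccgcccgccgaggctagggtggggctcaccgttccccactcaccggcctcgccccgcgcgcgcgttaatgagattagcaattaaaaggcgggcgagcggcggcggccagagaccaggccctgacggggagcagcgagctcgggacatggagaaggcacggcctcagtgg
The *Slc6a20a* window held GCGTG at base -147 from the start, the *Slc5a1* window held GCGTG at base -118, and the other 2 windows held none of these letters. RefSeq windows were matched for 80 of the 105 members, with 111 windows in all. GCGTG was in 48.6% of the members' windows and in 32.4% of all 32851 windows, CAAAGTCCA in 0.901% against 0.475%, and TGATGNAAT in 0% against 0.965%. The last of these was searched after the other motifs had been counted. A match is a description of letters and not a binding site.

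Members spanned a wide range of levels, and these levels chose them. In EtOH DMSO the mean FPKM ran from 1.45 to 420 with a median of 11.19, and 4 members lay above 100, 26 between 20 and 100, 66 between 5 and 20, and 9 under 5. The most abundant was *Slc25a5*, an ADP/ATP carrier of the mitochondrion, at 430.0 and 409 FPKM in EtOH DMSO. With Nec-1 after EtOH it stood at 428 and 429, and the 4-OHT libraries gave 443 and 454 with DMSO and 476 with Nec-1. It was followed by *Slc5a1* with a mean of 157 in EtOH DMSO, the mitochondrial citrate carrier *Slc25a1* (131), the mitochondrial phosphate carrier *Slc25a3* (100.0), and *Slc9a3r1* (60.9). The next in order were the mitochondrial *Slc25a39*, the high-affinity copper importer *Slc31a1*, the lactate and pyruvate carrier *Slc16a1*, the neutral amino acid carrier *Slc1a5* and the mitochondrial oxoglutarate carrier *Slc25a11*, all between 40.5 and 44.7. The mitochondrial class was the largest, with 23 members and 43.0% of the members' summed FPKM in EtOH DMSO. It took in every SLC25 symbol by family name, so a place in it does not prove a mitochondrial carrier. The other classes were also set mainly by family name, so a class label does not prove what a member carries. Zinc, copper and iron carriers (14 members) held 12.1%, amino acid, amine and creatine carriers (19) 11.7%, and sugar carriers (5) 8.15%, of which most was *Slc5a1*.

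**Figure D1:**
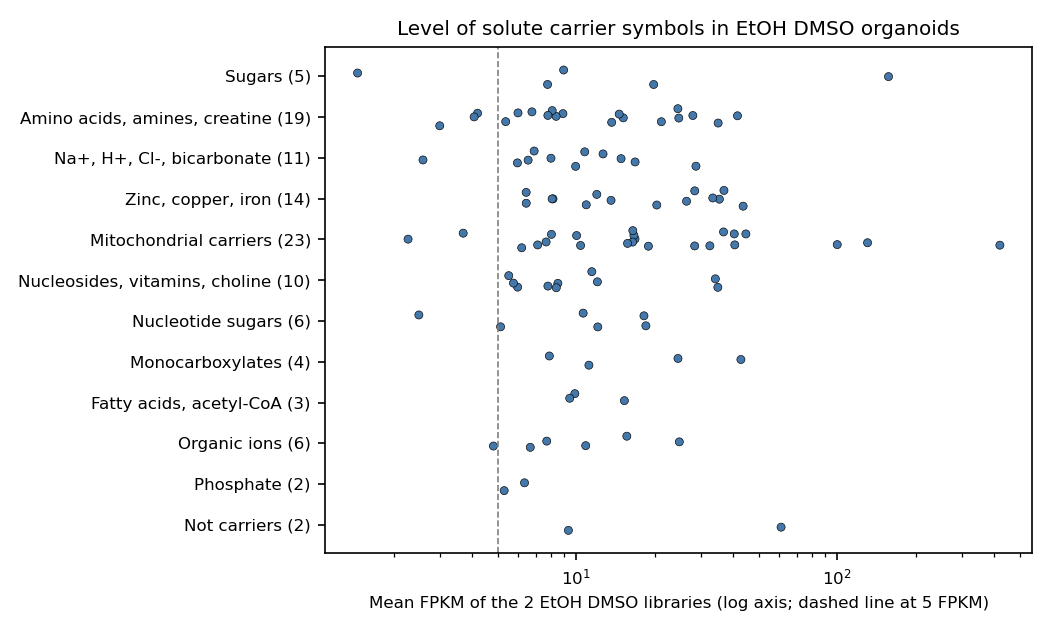
Mean FPKM of the 2 EtOH DMSO libraries (horizontal log axis) for the 105 members, 1 point each, grouped by transport class with the number of members in parentheses. Mitochondrial carriers reach 420 FPKM, *Slc5a1* is the far right point among the sugar carriers at 157, and 9 members lie left of the dashed line at 5 FPKM.

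The other classes had lower levels. Their leading members in EtOH DMSO were the choline-transporter-like genes *Slc44a4* (34.9 FPKM) and *Slc44a1* (34.1), the sodium-potassium-chloride cotransporter *Slc12a2* (28.8) and the anion exchanger *Slc26a6* (16.8), the organic cation carrier-like *Slc22a18* (24.8), the UDP-GlcNAc carrier *Slc35a3* (18.5) and the sugar phosphate carrier *Slc37a1* (18.2), the fatty acid transport protein *Slc27a4* (15.3) and the acetyl-CoA carrier *Slc33a1* (9.88), and the phosphate importers *Slc20a1* (6.34) and *Slc20a2* (5.30). Among amino acid carriers, *Slc1a5* and *Slc3a1*, the heavy chain of the cystine and dibasic amino acid exchanger, led with 41.5 and 35.0. Among metal carriers *Slc31a1* and the zinc carrier *Slc39a5* led with 43.6 and 36.8. The summed FPKM of all members was 2268 to 2459 in the 7 libraries, which was 0.464% to 0.546% of all FPKM.

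The label well expressed holds for most members in every library. The level of 5 FPKM was reached in all 7 libraries by 79 members, in EtOH libraries alone by 6 (*Slc6a20a*, *Slc2a2*, *Slc17a4*, *Slc19a2*, *Slc23a2* and *Slc6a4*) and in 4-OHT libraries alone by 8 (*Slc7a9*, *Slc38a7*, *Slc25a32*, *Slc7a6*, *Slc12a9*, *Slc35a2*, *Slc25a22* and *Slc45a3*). Between the DMSO groups, 11 members reached it in EtOH DMSO and not in 4-OHT DMSO (those 6 with *Slc5a4b*, *Slc25a45*, *Slc27a2*, *Slc26a3* and *Slc25a16*), and 8 in 4-OHT DMSO and not in EtOH DMSO (the 8 just named). The way these members were chosen favoured a difference in that direction, so their differences between 4-OHT DMSO and EtOH DMSO are given as values that describe them, with no test. *Slc15a1*, the PEPT1 peptide carrier and a classical gene of the enterocyte brush border, did not reach it and was not a member. It stood at 0.51 and 0.57 FPKM in EtOH DMSO, and with Nec-1 after EtOH at 0.90 in each library. The 4-OHT libraries gave 1.14 and 1.34 with DMSO and 1.43 with Nec-1. The amino acid carrier *Slc6a19* (1.49 to 2.69 FPKM) and the sodium-proton exchanger *Slc9a3* (1.31 to 4.52) of the brush border also stayed under the level. Just inside it, by the second highest FPKM over the libraries, were *Slc12a9* (5.10), *Slc25a32* (5.29) and *Slc38a7* (5.30), and just outside were *Slc10a3* (4.96), *Slc30a7* (4.91) and *Slc22a21* (4.91).

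Libraries of a group were close for most members. FPKM summed over all genes to 450207 to 498712 a library, and 11559 to 12038 genes reached 1 FPKM. Fragment counts were not used here, so the depth behind a value is unknown. The median absolute gap between the 2 libraries of a group was 0.12 on the log2(FPKM + 1) scale for the members in EtOH DMSO, 0.09 in EtOH Nec-1, and 0.12 for the pair labelled 4-OHT DMSO. Gaps of 0.5 or more were found for 4 members in EtOH DMSO, for 0 in EtOH Nec-1, and for 4 in the pair labelled 4-OHT DMSO. The widest were the zinc carrier *Slc39a11*, at 4.04 and 19.9 FPKM in EtOH DMSO, and the mitochondrial NAD+ carrier *Slc25a51*, at 5.80 and 16.4 in 4-OHT DMSO.

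Libraries labelled 4-OHT DMSO were compared with those labelled EtOH DMSO, which asks how carriers stand in organoids treated to lose *Mettl3*. The glucose carrier *Slc5a1*, the citrate carrier *Slc25a1* and the bicarbonate cotransporter *Slc4a4* were lower. The ADP/ATP carrier *Slc25a4*, the lactate exporter *Slc16a3* and the SLC12 member *Slc12a8* were higher. The sugar carriers *Slc2a2* and *Slc5a4b* and the imino acid carrier *Slc6a20a* were also lower. The level rule favoured that direction for these last members, so their falls are no test. With limma on log2(FPKM + 1), adjusted over all 12702 genes tested, 26 of the 105 members were higher, 31 were lower and 48 were not called at an adjusted p under 0.05. Over all genes tested, 24.5% were called higher and 16.7% lower. Among the 7794 of these genes that meet the same level rule the shares were 28.8% higher and 19.8% lower, beside 24.8% and 29.5% of the members. Of members called, 6 were higher and 9 lower by at least 1 log2 unit, where 6.72% and 3.66% of all genes were. The level rule favoured the direction of *Slc45a3*, *Slc25a22* and *Slc35a2* among the 6. It also favoured that of *Slc5a4b*, *Slc2a2*, *Slc6a20a*, *Slc27a2* and *Slc25a45* among the 9. No share of genes chosen in the same way was counted for this fold, so these counts are no test of an excess. The members' median change was 0.08 log2 units and that of all genes 0.08.

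The split depends on scaling. When every library was centred on its own median, the median change of all genes went from 0.08 to -0.08 log2 units, and the members' calls then stood at 16 higher and 44 lower, beside 17.4% and 25.1% of all genes. The 10 members no longer called higher were *Slc1a5*, *Slc25a28*, *Slc39a4*, *Slc16a6*, *Slc38a10*, *Slc29a1*, *Slc48a1*, *Slc30a6*, *Slc22a5* and *Slc25a32*, and none of the 57 called members changed sign. All 11 members at 5 FPKM in EtOH DMSO and not in 4-OHT DMSO were among those called lower, and 7 of the 8 with the reverse were among those called higher. Of the 86 members with a library at 5 FPKM in both DMSO groups, 19 were higher and 20 lower, which is 22.1% and 23.3%, where 25.0% and 18.3% of the 6608 genes at that level were.

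**Figure D2:**
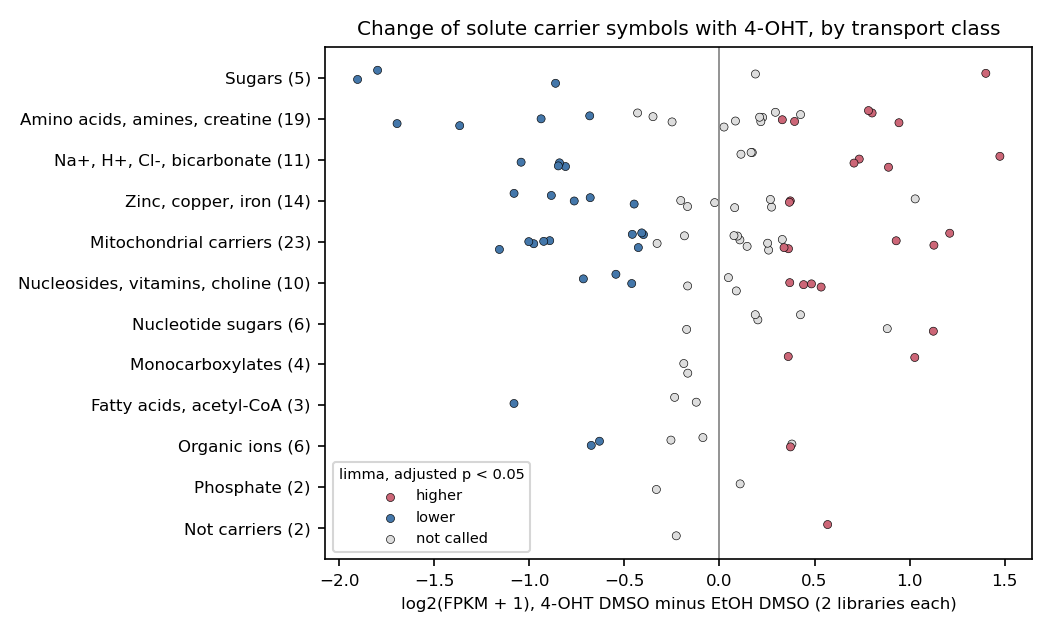
Difference in log2(FPKM + 1) between 4-OHT DMSO and EtOH DMSO (horizontal axis, 2 libraries each) for the 105 members by transport class, with colours for the limma call. The 26 higher and 31 lower calls are spread over most classes, and 3 of the 5 sugar carriers lie on the left, at -1.90, -1.80 and -0.86.

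Sugar carriers held the largest negative difference among the members. Of the 5, 1 was higher and 3 were lower, beside 24.5% and 16.7% of all genes. Of those called, *Slc5a4b*, *Slc2a2* and *Slc45a3* are among the members whose level favoured that direction. *Slc5a4b*, a member of the SGLT family, was at 7.95 and 7.59 FPKM in EtOH DMSO and at 0.92 and 1.86 in 4-OHT DMSO. The difference was -1.90 log2 units. Its near relative *Slc5a4a* was at most 0.80 FPKM in any library, and reads that both share could be split by the counting. *Slc2a2* was at 9.09 and 8.82 FPKM in EtOH DMSO and at 1.99 and 1.74 in 4-OHT DMSO, a difference of -1.80 log2 units. *Slc5a1* was at 154 and 161 FPKM and then at 85.4 and 86.7. It fell by 0.86 log2 units (SE 0.07, limma adjusted p = 0.0011) and remained the most abundant sugar carrier in every library. The sugar transporter *Slc50a1*, at 18.3 and 21.3 against 20.2 and 25.4 FPKM, was not called. *Slc45a3* was at 1.20 and 1.71 FPKM in EtOH DMSO and 4.60 and 6.41 in 4-OHT DMSO (difference 1.40).

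Among the 19 amino acid, amine and creatine carriers 5 were higher and 4 lower, beside 24.5% and 16.7% of all genes. The level rule favoured the direction of *Slc6a20a*, *Slc6a4*, *Slc7a6* and *Slc7a9*, so their calls are not a test. The falls were in *Slc6a20a*, *Slc1a1*, *Slc6a4* and *Slc38a1*. *Slc6a20a*, an imino acid carrier, was at 12.5 and 14.8 FPKM in EtOH DMSO and at 4.06 and 3.04 in 4-OHT DMSO (difference -1.69). *Slc1a1*, which takes up glutamate and aspartate, was at 14.8 and 15.5 and then at 4.70 and 5.89 (change -1.37, SE 0.12). The serotonin transporter *Slc6a4* was at 5.19 and 5.56 and then at 2.36 and 2.29, and *Slc38a1*, a glutamine carrier, changed by -0.68. The rises were in *Slc7a6* (0.94), a light chain that carries cationic and neutral amino acids with *Slc3a2*, in the creatine carrier *Slc6a8* (0.80), in *Slc7a9* (0.78), the light chain partner of *Slc3a1*, in *Slc1a5* (0.40) and in *Slc38a10* (0.33). *Slc6a8* was at 6.73 and 8.85 FPKM in EtOH DMSO and at 12.0 and 16.8 in 4-OHT DMSO, and its call (limma adjusted p = 0.029) was lost without either EtOH DMSO library or without the second 4-OHT DMSO library, with changes of 0.58 to 0.98, and with no filter on low values (limma adjusted p = 0.098). The calls of *Slc1a5* and *Slc38a10* were lost with median centring and with only the 4 DMSO libraries. The heavy chain *Slc3a1* was not called, at 35.1 and 34.9 against 35.7 and 35.4 FPKM.

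Of the 23 SLC25 members in the mitochondrial class 5 were higher and 9 lower, beside 24.5% and 16.7% of all genes. The level rule favoured the direction of *Slc25a45*, *Slc25a16*, *Slc25a22* and *Slc25a32*, so their calls are not a test. *Slc25a1* was at 120 and 142 FPKM in EtOH DMSO and at 55.0 and 60.9 in 4-OHT DMSO, a change of -1.16 (SE 0.11, limma adjusted p = 0.0014). *Slc25a45* was at 5.92 and 6.45 and then at 2.49 and 2.68 (change -1.0), and the pyrimidine nucleotide carrier *Slc25a36* was at 17.3 and 20.5 and then at 8.88 and 9.30 (change -0.98). The ornithine carrier *Slc25a15* changed by -0.89, from 32.6 and 32.4 FPKM to 17.4 and 16.7, and *Slc25a16* by -0.92. In the other direction, *Slc25a4* was at 10.6 and 9.44 FPKM in EtOH DMSO and at 22.1 and 24.1 in 4-OHT DMSO (change 1.13, SE 0.10, limma adjusted p = 0.0011). *Slc25a5*, which encodes another ADP/ATP carrier and was far more abundant, changed by 0.10 (limma adjusted p = 0.37). The mitochondrial glutamate carrier *Slc25a22* was at 2.27 in both EtOH DMSO libraries and at 6.20 and 6.96 in 4-OHT DMSO (change 1.21). *Slc25a46*, a protein of the outer mitochondrial membrane, was at 10.5 and 10.3 and then at 20.8 and 20.6 (change 0.93).

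Among the 11 ion exchange members 4 were higher and 4 lower, beside 24.5% and 16.7% of all genes. The level rule favoured the direction of *Slc26a3* and *Slc12a9*, so their calls are not a test. On the log2(FPKM + 1) scale the largest rise of all members was that of *Slc12a8*, at 9.80 and 11.8 FPKM in EtOH DMSO and 28.9 and 34.6 in 4-OHT DMSO (change 1.47, SE 0.14, limma adjusted p = 0.0015). As a ratio of mean FPKM it was 2.94, under the 3.79 of *Slc45a3*, which is low in EtOH DMSO. *Slc12a9* was higher by 0.89, and the anion exchanger *Slc4a2* and the sodium-proton exchanger *Slc9a2* rose by 0.74 and 0.71. The bicarbonate cotransporter *Slc4a4* was at 13.5 and 16.2 FPKM and then at 6.99 and 6.36 (change -1.04, SE 0.11, limma adjusted p = 0.0021). *Slc4a7* (-0.85) and the chloride-bicarbonate exchangers *Slc26a6* (-0.84) and *Slc26a3* (-0.81) were also lower. Of the 14 metal carriers 2 were higher and 5 lower, beside 24.5% and 16.7% of all genes. The zinc and iron carrier *Slc39a14* was at 11.4 and 15.8 FPKM in EtOH DMSO and at 5.62 and 6.04 in 4-OHT DMSO (change -1.08), *Slc39a5* was at 37.3 and 36.4 and then at 19.8 and 19.2 (change -0.88), and *Slc31a1* changed by -0.68. *Slc39a4*, the enterocyte zinc importer, was higher by 0.37 at 25.9 and 27.0 against 32.7 and 36.5 FPKM. This call was lost with median centring, with no filter on low values and with only the 4 DMSO libraries. *Slc39a11* with its wide gap in EtOH DMSO, was not called (change 1.03, SE 0.62).

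In the smaller classes the lactate exporter *Slc16a3* was at 24.7 and 24.4 FPKM in EtOH DMSO and at 50.2 and 51.9 in 4-OHT DMSO (change 1.03, SE 0.07, limma adjusted p = 0.00066), and *Slc16a1*, a monocarboxylate carrier that works in either direction, was not called at 44.1 and 41.4 against 37.0 and 37.8. The UDP-galactose carrier *Slc35a2* was at 3.10 and 1.90 and then at 6.42 and 6.61 (change 1.12), and the very long chain acyl-CoA synthetase *Slc27a2* was at 9.49 and 9.41 and then at 3.90 and 3.99 (change -1.08). Of the 10 nucleoside, vitamin and choline carriers 4 were higher and 3 lower, beside 24.5% and 16.7% of all genes. Among them *Slc44a4* stood at 0.53 and *Slc44a1* at -0.54. The level rule favoured the direction of *Slc35a2*, *Slc27a2*, *Slc19a2* and *Slc23a2*, so their calls are not a test. The 2 phosphate importers were not called. The scaffold *Slc9a3r1* rose from 60.5 and 61.4 FPKM to 87.2 and 94.7 (change 0.57).

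Genes that work beside the carriers were also tested, where 24.5% of all genes were higher and 16.7% lower. Of 12 brush-border hydrolases and partner proteins tested, 3 were higher and 7 lower. The disaccharidase *Sis* changed by -1.37, whereas the aminopeptidase *Anpep* was higher by 1.08. Of 11 intestinal transcription factors 2 were higher and 3 lower, and *Hnf4a* was not called (-0.22). Of 9 amino acid response factors and targets 0 were higher and 4 lower, among them *Atf4* (-0.43).

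Marker genes of other cell types moved with this comparison. All 5 Paneth, 6 goblet and 5 enteroendocrine markers were higher, and 3 of 5 stem and 2 of 4 proliferation markers lower. Summed Paneth FPKM was 6965 to 7651 in EtOH DMSO and 18125 to 18629 in 4-OHT DMSO. The goblet sum was 1901 to 2098 and then 3055 to 3497, the enteroendocrine sum 249 to 269 and then 509 to 575, and the stem sum 46.1 to 47.8 and then 21.3 to 29.1. Of 8 enterocyte markers 4 were higher and 3 lower, with sums of 1351 to 1400 and then 1168 to 1249. Of 5 immune markers only *Lyz2* passed the filter and it was not called, and the tuft, fibroblast and endothelial sums were at most 2.46, 0.11 and 0.14 FPKM in any library, with no marker at 0 in every library. The part of cell makeup in the carrier values was not tested, and in bulk samples fewer cells of a type and less RNA per cell cannot be told apart.

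**Figure D3:**
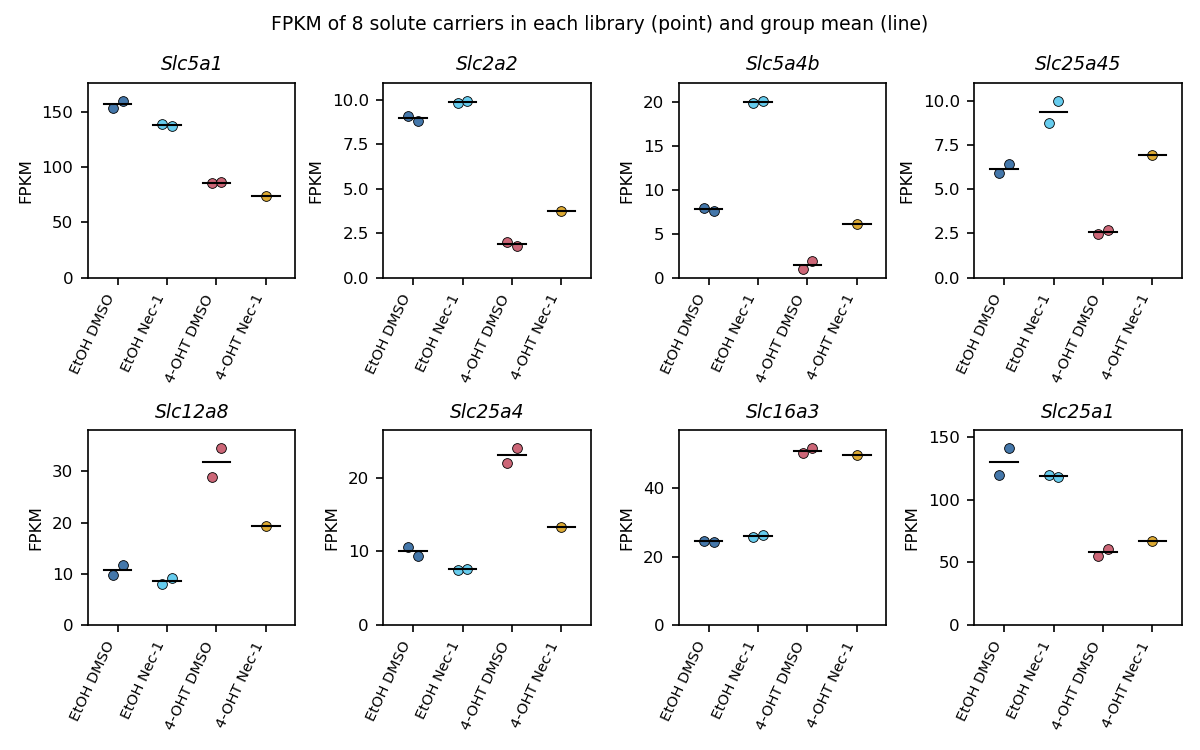
FPKM (vertical axes, each from 0) of 8 members in the 7 libraries, 1 point each, with the group mean as a line. In EtOH DMSO *Slc5a1*, *Slc2a2*, *Slc5a4b*, *Slc25a45* and *Slc25a1* lie above both 4-OHT DMSO libraries, and *Slc12a8*, *Slc25a4* and *Slc16a3* lie below them.

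EtOH Nec-1 was compared with EtOH DMSO to see what Nec-1 does without induced Cre. No member (0 of 105) was called by limma in either direction, with the lowest adjusted p at 0.12. Over all genes tested, 0.173% were called higher and 0.0472% lower. At an unadjusted p under 0.05, 6 members were higher and 9 lower, beside 2.92% and 10.4% of all genes. Members above both EtOH DMSO libraries in both EtOH Nec-1 libraries numbered 18, and members below both numbered 36, whereas 10.5% of all genes were above and 39.1% below. After centring the libraries on their medians this balance turned, with 36 members above and 17 below, beside 22.4% and 21.7% of all genes. *Slc5a4b* was at 7.95 and 7.59 FPKM in EtOH DMSO and at 19.9 and 20.1 in EtOH Nec-1 (difference 1.26, SE 0.19, 95% confidence interval 0.78 to 1.74, limma adjusted p = 0.12), a gap wider than the spread within either group. A fit on the 4 libraries alone called it (limma adjusted p = 0.010), and this was the 1 call that fit made among members.

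Other differences with Nec-1 in EtOH organoids were smaller or rested on unequal libraries. *Slc39a11* differed by 1.19, but the EtOH DMSO libraries stood at 4.04 and 19.9 FPKM and the EtOH Nec-1 libraries at 22.9 and 21.9. Its difference was 0.16 (limma adjusted p = 0.42) when the library at 4.04 was left out. It was 2.21 (limma adjusted p = 0.020) when the library at 4.04 stood alone in its group, with the spread taken from the other groups, so this call rests on that 1 library. *Slc25a51* was at 7.05 and 8.29 FPKM in EtOH DMSO and at 12.5 and 13.4 in EtOH Nec-1 (difference 0.69, limma adjusted p = 0.53). *Slc39a4* was at 25.9 and 27.0 and then at 18.7 and 16.6 (difference -0.56), the large neutral amino acid carrier *Slc7a5* at 7.38 and 8.81 and then at 5.18 and 5.33 (difference -0.54), and *Slc25a4* at 10.6 and 9.44 and then at 7.50 and 7.67 (difference -0.36). None of these differences passed the test. *Slc5a1* (139 and 138 FPKM in EtOH Nec-1, difference -0.18) and *Slc2a2* (9.80 and 9.94, difference 0.13) were not called. The members' median difference was -0.05 and that of all genes -0.09. No marker of another cell type was called in EtOH Nec-1. The summed stem marker FPKM was 46.1 to 47.8 in EtOH DMSO and 32.6 to 34.8 in EtOH Nec-1, and the enterocyte sum 1351 to 1400 and then 1163 to 1171. The Paneth sum was 6965 to 7651 and then 8133 to 8310, the goblet sum 1901 to 2098 and then 2116 to 2165, and the enteroendocrine sum 249 to 269 and then 289 to 310.4. The lysozyme gene *Lyz2*, the 1 immune marker that passed the filter, stood at 0.63 and 0.24 FPKM in EtOH DMSO and at 2.52 and 1.55 in EtOH Nec-1 (difference 1.08, limma adjusted p = 0.21). The part of these markers in the carrier values was not tested.

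The 1 library labelled 4-OHT Nec-1 was set beside the 2 labelled 4-OHT DMSO, which asks where carriers stand when RIPK1 is inhibited after 4-OHT. There is no replicate and no test, and values are differences in log2(FPKM + 1) from the DMSO libraries. Of the 105 members 63 were above each DMSO library, 31 below each and 11 between them, which is 60% above and 29.5% below. Over all 12036 genes with a mean of 1 FPKM or more in these libraries, 24.5% were above and 50.6% below. Among the 7772 of these that meet the members' level rule, 24.8% were above and 52.4% below, and the members' median difference was 0.11 where that of all genes was -0.09. After centring the libraries on their medians 75 members were above and 20 below, with 41.3% and 32.4% of all genes. Members at 5 FPKM or more in every library gave 44 above and 27 below of 79. Members that exceeded each DMSO library by 1 log2 unit or more numbered 2, beside 0.764% of all genes. Those lower than each by as much numbered 0, beside 1.21%. Both members past the fold were under 5 FPKM in 4-OHT DMSO and met the level rule through other libraries. No share of genes chosen in the same way was counted for this fold, so these counts are no test of an excess.

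The 2 members past that fold were *Slc5a4b* and *Slc25a45*. *Slc5a4b* was at 0.92 and 1.86 FPKM in 4-OHT DMSO and at 6.08 in 4-OHT Nec-1, a difference of 1.31 to 1.88 from the separate libraries, and it stayed below both EtOH Nec-1 libraries (19.9 and 20.1). *Slc25a45* was at 2.49 and 2.68 FPKM and then at 6.93 (1.11 to 1.18). *Slc26a6* was at 7.89 and 10.1 and then at 16.4 (mean difference 0.81), *Slc26a3* at 3.66 and 3.36 and then at 6.86 (0.80), *Slc39a5* at 19.8 and 19.2 and then at 33.6 (0.76), and *Slc2a2* at 1.99 and 1.74 and then at 3.75 (0.73). *Slc5a1* was at 85.4 and 86.7 FPKM in 4-OHT DMSO and at 74.1 in 4-OHT Nec-1 (difference -0.21).

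Below each DMSO library the widest difference was that of *Slc25a4*, at 22.1 and 24.1 FPKM in 4-OHT DMSO and at 13.4 with Nec-1 (-0.75). *Slc12a8* was at 28.9 and 34.6 and then at 19.3 (-0.69), *Slc25a22* at 6.20 and 6.96 and then at 3.99 (-0.60), *Slc6a8* at 12.0 and 16.8 and then at 9.93 (-0.48), *Slc39a4* at 32.7 and 36.5 and then at 25.2 (-0.44), and *Slc25a44* at 16.2 and 17.9 and then at 12.4 (-0.43). Amino acid carriers were above each DMSO library in 13 of 19 cases, mitochondrial carriers in 15 of 23, and metal carriers in 10 of 14. Nucleotide sugar and sugar phosphate carriers were above in 1 of 6, beside 24.5% of all genes. These differences share their DMSO libraries with the comparison of 4-OHT with EtOH, so the order of a gene in both is not independent. The Nec-1 libraries of 14 members lay below both DMSO libraries after EtOH and above both after 4-OHT, and those of 1 member the reverse, beside 6.27% and 3.09% of the 11937 genes measured in both. With median centring, tried for this count after seeing the data, the counts were 7 and 2, beside 5.99% and 4.8%.

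**Figure D4:**
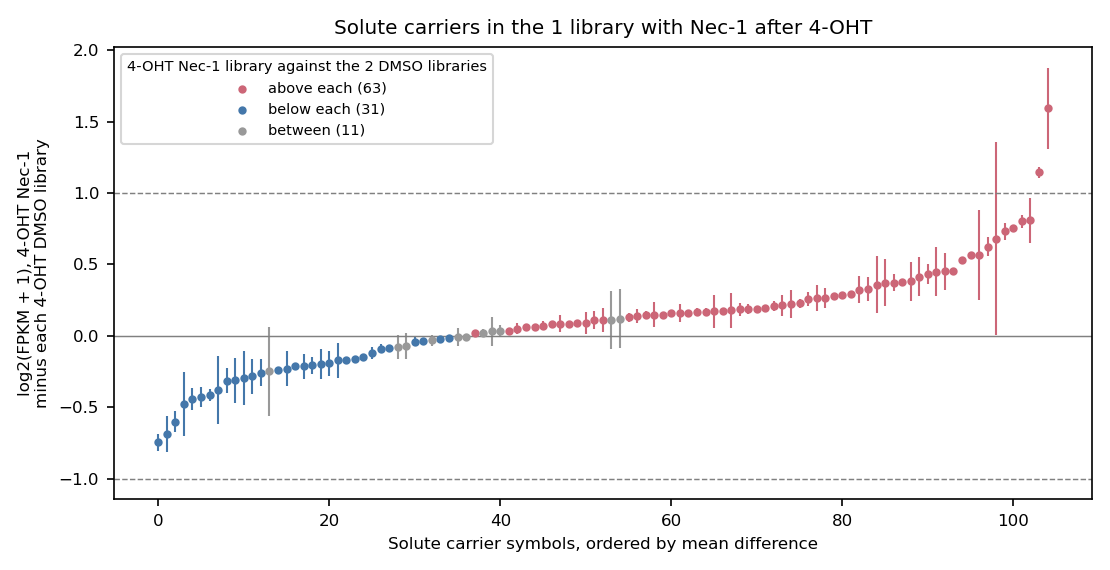
Difference in log2(FPKM + 1) between the 1 4-OHT Nec-1 library and each of the 2 4-OHT DMSO libraries (vertical axis) for the 105 members ordered by mean difference. Bars run between the 2 differences, points are their means, and colours separate the 63 above each library, the 31 below each and the 11 between. *Slc5a4b* (mean 1.59) and *Slc25a45* (1.14) stand above the dashed line at 1.

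Markers also differed in that library. All 5 Paneth markers were below each DMSO library, as were 5 of 6 goblet, 3 of 4 stem and 3 of 4 proliferation markers. Of 5 enteroendocrine markers 2 were above each and 1 below each. Over all genes 24.5% were above and 50.6% below. The immune marker *Lyz2*, at 2.63 FPKM against 0.68 and 0.34, was above each DMSO library by 1.11 to 1.43. In the same library *Ptprc* was at 0.025 FPKM, *Cd3e* at 0, *Cd79a* at 0.12 and *Csf1r* at 0.055. None of these other immune markers lay above both 4-OHT DMSO libraries. The summed Paneth FPKM was 13770 in 4-OHT Nec-1 and 18125 to 18629 in 4-OHT DMSO, the goblet sum 2647 against 3055 to 3497, the stem sum 14.0 against 21.3 to 29.1, and the enterocyte sum 1409 against 1168 to 1249. Of the 8 enterocyte markers 3 were above each DMSO library and 3 below each. *Fabp1*, a large share of that sum, was at 647 FPKM against 328 and 394 in 4-OHT DMSO. The part of all these markers in the carrier values was not tested. Of the hydrolases and partner proteins 7 of 12 were above each DMSO library and 3 below each. Of the 11 transcription factors 7 were above and 4 below, where 24.5% of all genes were above and 50.6% below.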

How the data were processed

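Bulk RNA-seq of 7 organoid libraries was used. The authors deposited FPKM for each Ensembl gene of the mouse, and per the labels the processing used HISAT2 2.1.0, StringTie 1.3.3b and the mm10 build. For Atf3, 2 CUT&Tag samples were not analysed here. Symbols were matched for 54723 of 54838 identifiers. Members, gene lists and tests were chosen with earlier results of these data known. Levels are FPKM as deposited. Differences were computed on log2(FPKM + 1), a scale that understates the change of low genes, from the deposited FPKM with limma 3.58.1 in R 4.3.3, with a mean-variance trend and 1 mean per group over all 7 libraries (3 residual degrees of freedom), for genes that reached 1 FPKM in 2 libraries or more. P-values were adjusted by Benjamini-Hochberg and called under 0.05. The 4-OHT Nec-1 library has no replicate and was compared without a test. The limma script was tested on simulated data. Members named are the leading sugar carriers, the 10 largest called rises and falls with 4-OHT, the 3 largest each way with Nec-1 in EtOH, the 6 largest each way with Nec-1 after 4-OHT, the 10 most abundant, the 2 leading members of each class and the neighbours of the level threshold. Further called members, named where a class count is given, and Slc6a19, Slc9a3 and Slc5a4a were chosen after their values had been seen, as were the comparisons with genes at the members' level and the counts of sides after median centring. Some items that these rules name are not reported here. Alternatives were other scalings, filters, pseudocounts, sample sets, a replicate block and each library left out. Tables and figures were made with Python 3.11.15, numpy 2.4.6, pandas 2.3.3 and matplotlib 3.10.9.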

Additional observations from a re-analysis of the deposited data

Results flagged for a closer look

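*Slc16a3*, *Slc1a1*, *Slc25a1* and *Slc27a2* are listed because every Nec-1 library lay on opposite sides of its DMSO libraries in the 2 pre-treatments. The differences in log2(FPKM + 1) were 0.0845 in EtOH and -0.0350 in 4-OHT for *Slc16a3*, -0.23 and 0.41 for *Slc1a1*, -0.13 and 0.21 for *Slc25a1*, and -0.32 and 0.28 for *Slc27a2*. The difference between pre-treatments was not tested for these members, and 4-OHT Nec-1 has 1 library. Among all 105 members 15 lay on opposite sides, 14 of them lower with Nec-1 after EtOH and higher with Nec-1 after 4-OHT, and 1 the other way. Of the 11937 genes measured in both, 6.27% and 3.09% did so. With median centring the member counts were 7 and 2, beside 5.99% and 4.8% of those genes. *Slc16a3* then lay above its DMSO libraries in both pre-treatments and the EtOH libraries of *Slc25a1* overlapped, whereas *Slc1a1* and *Slc27a2* lay on opposite sides in both scalings.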

How the results depend on the processing

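Of the counts reported for 4-OHT DMSO against EtOH DMSO, the 26 higher calls fell to 16 with median centring, 16 with upper quartile scaling, 17 with no filter on low values and 16 with only the 4 libraries. Over leave-one-out fits they ranged from 17 (without EtOH DMSO replicate 1) to 25 and the lower calls from 24 to 29. With a threshold of 1 log2 unit added there were 6 higher and 9 lower calls, and among the 79 members at 5 FPKM in every library 19 lower. Lower calls also stood at 20 among members at 5 FPKM in 2 libraries of each pre-treatment, a restriction chosen after seeing the data. With the replicate number as a block the calls were 19 higher and 32 lower. Same-numbered libraries shared no visible deviation (correlations of -0.04, 0.01 and -0.01). These values cannot show whether same-numbered libraries came from the same culture, and the labels do not say. EtOH Nec-1 against EtOH DMSO gave 1 higher call with only the 4 libraries, and 0 to 1 in leave-one-out fits, the 1 without EtOH DMSO replicate 2. In the replicate block fit it gave 0 higher and 0 lower. Of the 2 members past the fold in 4-OHT Nec-1 against 4-OHT DMSO, 0 were left when a mean of 5 FPKM over the 3 libraries was required and 0 among members at 5 FPKM in every library, since both are low in 4-OHT DMSO. Other alternatives left the counts within 1.5 times. None of the 57 called members changed sign in any alternative. Under median centring 11 uncalled members changed sign in 4-OHT DMSO against EtOH DMSO, 32 in EtOH Nec-1 against EtOH DMSO and 11 in 4-OHT Nec-1 against 4-OHT DMSO. Among printed values these include *Slc25a5* in 4-OHT DMSO (-0.0617 with median centring and -0.0705 with upper quartile scaling) and *Slc16a3* in 4-OHT Nec-1 (0.0794 with median centring). FPKM hides the fragment counts, so the precision of low members is unknown. The cause of the remaining differences was not tested.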
